A study of Drosophila melanogaster with 39 samples.

Results

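Loss of Paf1L and loss of Leo1L, which are testis-expressed relatives of the PAF1 complex subunits Paf1 and Leo1, were compared directly in whole testes of Drosophila melanogaster. The comparison used 9 of the 39 samples of the series, taken by the names of their columns in the table of whole-testis libraries: 3 libraries of Paf1L mutants (genotype Paf1L TH2) and 6 libraries of Leo1L mutants (genotype Leo1L TH1). The Leo1L libraries came from 2 crosses, 3 from each; the second is labelled as inverted and is called the inverted cross here. The TH genotypes are transheterozygous, so a fly carries a pair of different mutant alleles of the gene. The alleles behind each TH number are not given in the sources used here, and each mutant was represented by a single allele pair. Flies were 1 to 3 days old, and poly(A) RNA of whole testes was sequenced. Used beside them were 3 libraries each of the control stocks w1118 and w1118 iso, of Cdc73L TH1 and of Ctr9L TH2 mutants, and a separate table of sorted spermatocytes. The sorted cells carried GFP-tagged Cdc73L, also in the controls, were homozygous for Leo1L FS1 or Paf1L FS1 or wild type for both (w1118), and were at least 85% pure by the labels' account.

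The PAF1 complex travels with elongating RNA polymerase II and is built from Paf1, Leo1, Ctr9, Cdc73 and, in many species, Rtf1. Paf1 and Leo1 bind each other directly and form a module of the complex, while Ctr9 is its scaffold. Primary spermatocytes switch on a large set of genes, among them Y-linked fertility genes with very long introns, before the meiotic divisions.

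The values are signal per gene, normalised by the authors. Fold changes were computed on log2(signal + 1), on which the change of genes with low signal is understated, and always give Paf1L minus Leo1L unless another contrast is named. A gene was called when its limma adjusted p was under 0.05 over all 10925 tested genes and its log2 fold change was at least 1 in either direction. The most common of the smallest values in a library was taken as a single read. Total signal divided by it gave a depth of about 9.45 to 12.8 M reads (M, 1e+06) for the 9 libraries. On that reading 3 reads correspond to a signal of 0.224 to 0.330. Between 10526 and 11001 genes had a signal of at least 1. Sperm chromatin and sperm tail transcripts marked all 9 libraries as testis, with a mean log2(signal + 1) over 11 genes of 9.56 to 9.62 in Paf1L and 9.59 to 9.71 in Leo1L libraries. Transcripts of the accessory gland, a neighbouring organ, varied. Averaged over 12 of its genes, log2(signal + 1) was 1.57, 5.48 and 6.83 in the Paf1L libraries, 5.49, 5.20 and 5.56 in the Leo1L cross and 3.64, 5.95 and 1.13 in the inverted cross, against 4.10 to 6.15 in the controls. Its difference between the mutants was 0.13 (2-sided exact permutation test, p = 0.952, smallest possible p 0.0119).

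Testes lacking Paf1L and testes lacking Leo1L were close to each other. Of 10925 genes, 11 were called (0.101%). Higher in Paf1L were 6 genes (0.0549%), namely sordd2, CG10887, CG8586, Ret, CG32333 and CG15882. Lower in Paf1L were 5 genes (0.0458%), namely CG8584, CG12674, CG15765, CG12729 and Sdic3. Among them CG10887 and CG12674 are the mutated genes themselves. In all 11 genes every Paf1L library lay beyond all 6 Leo1L libraries, a separation that 625 of all tested genes showed (5.72%). Without a limit on the fold change 25 genes passed (0.229%, 15 higher and 10 lower), and 941 had an unadjusted p under 0.05 (8.61%). With a pseudocount of 5 in place of 1, 7 genes were called, and CG15882, CG32333, CG8586 and Ret were lost. In whole testes a lower signal from fewer cells of a type and from less RNA per cell cannot be told apart.

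**Figure D1:**
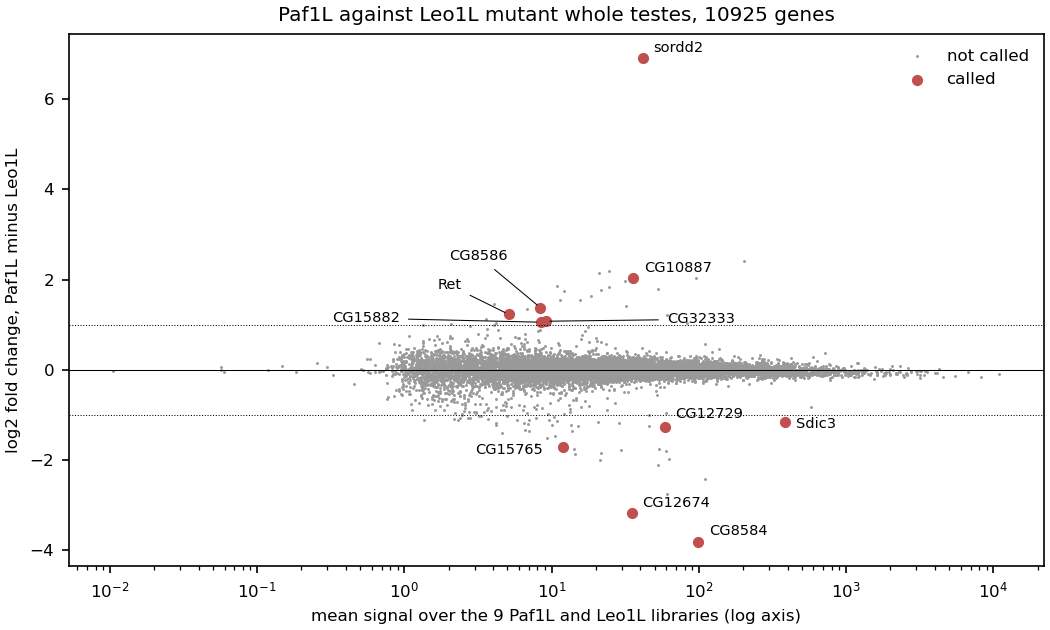
Log2 fold change of Paf1L minus Leo1L against the mean signal over the 9 libraries (log axis) for 10925 genes, with dotted lines at a log2 fold change of 1 in either direction. The 11 called genes are red and named, and sordd2 (6.92) and CG8584 (-3.81) lie farthest out among them; grey points beyond the dotted lines did not pass the test.

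The precision of the comparison was high for most genes. At the median gene the standard error of the difference was 0.11. For 10356 genes (94.8%) the 95% interval of the difference lay wholly within 1 of 0, and for 8219 (75.2%) within 0.5. At the other end, 6 genes had an interval wholly beyond 1. The point estimate was under 0.5 in size for 97.4% of genes.

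Comparisons of 3 libraries with 3 gave a scale for these counts. The inverted cross of Leo1L differed from the other cross by 1 gene (0.00915%), CG3777, at a log2 fold change of -1.57, and 609 genes had an unadjusted p under 0.05 (5.57%). Paf1L differed from the Leo1L cross by 11 genes (0.101%) and from the inverted cross by 10 (0.0915%). From Ctr9L mutants it differed by 81 genes (0.741%) and from Cdc73L mutants by 99 (0.906%). These 4 comparisons share the Paf1L libraries, and the differences between their counts were not tested. Distances between pairs of libraries, which include the spread within groups, did not give this order, and their ranges overlapped. The median was 0.469 for Paf1L to Leo1L, 0.450 for Paf1L to Ctr9L and 0.529 for Paf1L to Cdc73L. Among the Paf1L libraries it was 0.470, and from Paf1L to controls 0.572. The accessory gland mean was 1.05, 1.32 and 3.73 in the Cdc73L libraries, and its part in their count was not tested. The control stocks w1118 iso and w1118 differed by 161 genes (1.47%).

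**Figure D2:**
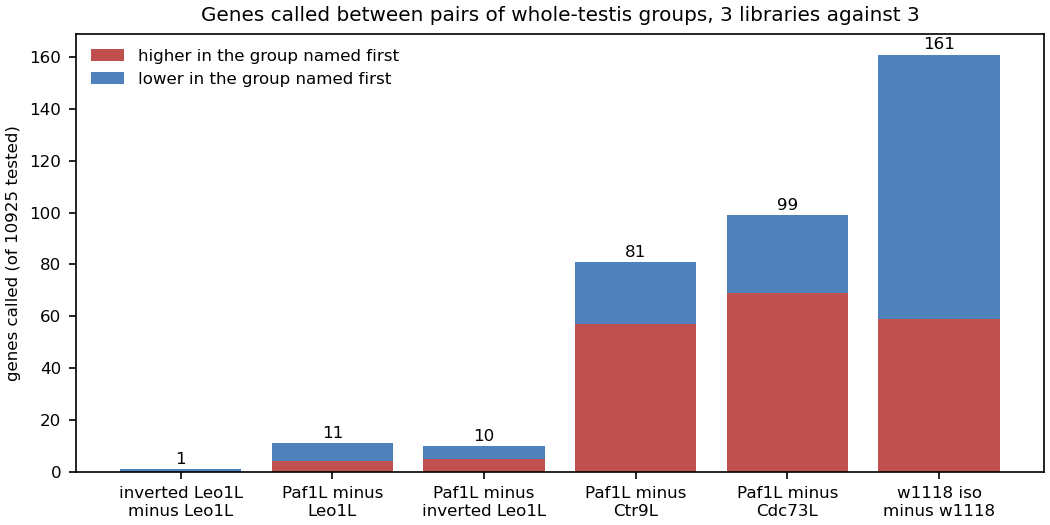
Number of called genes, of 10925 tested, in 6 comparisons of 3 whole-testis libraries with 3; red is higher and blue lower in the group named first. The bars run from 1 gene between the Leo1L crosses through 11 and 10 for Paf1L against each Leo1L cross to 81, 99 and 161.

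The genes mutated in these flies separated the groups in opposite directions. CG10887, the gene of Leo1L (3R:20114838-20117139, plus strand), had a signal of 77.1, 72.4 and 70.7 in the Paf1L libraries, and of 15.5, 16.6 and 17.5 in the Leo1L cross and 18.2, 17.4 and 17.7 in the inverted cross. It was therefore low in each Leo1L library, with no overlap, at a log2 fold change of 2.04 ± 0.07 (SE; limma adjusted p = 1.03e-12). CG12674, the gene of Paf1L (2L:2079919-2081286, plus strand), had 6.67, 2.84 and 5.08 in the Paf1L libraries and 45.7, 54.7 and 49.5 in the Leo1L cross, with 53.7, 46.6 and 50.7 in the inverted cross. It was low in each Paf1L library, at -3.18 ± 0.15 (SE; limma adjusted p = 6.09e-11). Both labels thus have a transcript that falls in the flies named for it. CG9899, the gene of Ctr9L, which neither group lacks, was at 116.8 ± 8.41 (SD, n = 3) in Paf1L and 120.0 ± 8.38 (SD, n = 6) in Leo1L testes, a log2 difference of -0.04 (95% interval -0.19 to 0.11). Against the 6 controls, CG12674 changed by -0.13 in Leo1L mutants (limma adjusted p = 0.420), while CG10887 rose by 0.22 in Paf1L mutants (limma adjusted p = 0.0314), below the fold limit.

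The gene that separated the mutants most was sordd2 (X:15796908-15799162, minus strand). It was listed at 0 in 5 of the 6 Leo1L libraries and at 0.294 in the second library of the inverted cross, about the value of 3 reads. In the Paf1L libraries it was at 121, 125 and 130. The controls lay between, at 52.6, 53.5 and 58.2 in w1118 and 45.2, 44.6 and 56.7 in w1118 iso, so the Leo1L libraries were below and the Paf1L libraries above every control. Ctr9L mutants had 105 to 110 and Cdc73L mutants 100 to 114, near the Paf1L level. The log2 fold change was 6.92 ± 0.09 (SE; limma adjusted p = 2.55e-20). Its size is set by the pseudocount, because most Leo1L libraries were listed at 0, and it understates the ratio of the listed signals. Against the 6 controls sordd2 rose by 1.26 in Paf1L mutants (limma adjusted p = 8.85e-09), 1.05 in Ctr9L and 1.01 in Cdc73L mutants. Sorted spermatocytes came from homozygous FS1 mutants, and whether FS1 is part of the TH pairs is not given. There sordd2 was listed at 0, 0.135 and 0 in Leo1L mutants and at 155, 171 and 163 in Paf1L mutants. In sorted controls it was at 113, 166 and 117. Its neighbours differed less. On one side sordd1, 880 bases away, differed by 0.05 (limma adjusted p = 0.899). On the other side CG15602, 264 bases away, was at 22.9 ± 0.14 (SD, n = 3) in Paf1L and 16.8 ± 0.67 (SD, n = 6) in Leo1L testes, a difference of 0.43 (limma adjusted p = 0.0301). The mean of CG15602 in the controls, 18.9 ± 2.38 (SD, n = 6), lay between those of the mutants, as for sordd2, but the control libraries, at 16.3 to 22.9, overlapped the Leo1L libraries. In sorted cells CG15602 was at 24.8, 19.8 and 23.8 in Paf1L, at 7.70, 10.8 and 12.7 in Leo1L and at 21.1, 14.7 and 12.5 in control columns. The difference of 1.08 between the sorted mutants did not pass (limma adjusted p = 0.0589).

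CG8584 (2R:8700692-8701794, minus strand) was the gene with the largest fall in Paf1L testes. Its signal was 9.02, 9.07 and 9.85 there, against 137, 136 and 138 in the Leo1L cross and 159, 145 and 148 in the inverted cross. The controls ranged from 168 to 203, the Ctr9L libraries from 138 to 154 and the Cdc73L libraries from 153 to 170, so that the Paf1L libraries stood alone at a low level. The log2 fold change was -3.81 ± 0.06 (SE; limma adjusted p = 9.51e-19), and against the 6 controls CG8584 changed by -4.19 in Paf1L and by -0.38 in Leo1L mutants. Sorted Paf1L spermatocytes did not show this fall. There CG8584 was at 110, 114 and 107 in Paf1L FS1 columns, at 112, 123 and 114 in Leo1L FS1 columns and at 131, 133 and 129 in controls, a difference between the mutants of -0.08 (limma adjusted p = 0.679). The whole-testis and sorted Paf1L flies differed in genotype (TH2 and homozygous FS1), and whether FS1 is part of TH2 is not given. Differences of cells, of alleles or stocks, of the Cdc73L tag and of library preparation cannot be told apart.

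CG8586 (2R:8692796-8696245, minus strand), 4447 bases from CG8584, moved the other way. It was at 11.7, 16.6 and 16.1 in Paf1L testes, at 7.75, 4.77 and 3.69 in the Leo1L cross and at 3.20, 5.99 and 5.67 in the inverted cross. The controls, at 5.84 to 14.5, spanned the gap between the mutants. The stocks overlapped, with 10.3 to 14.5 in w1118 and 5.84 to 10.6 in w1118 iso, and their difference did not pass (limma adjusted p = 0.106). The log2 fold change was 1.38 ± 0.24 (SE; limma adjusted p = 0.0158), and the call was lost without the second (adjusted p = 0.118) or the third Paf1L library (0.101). CG8738, which lies between the pair, differed by -0.14 (limma adjusted p = 0.910). CG8586 overlaps Jon44E, and whether the counting used strand is not given in the sources used here; Jon44E differed by -0.88 with a wide error (limma adjusted p = 0.860).

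Ret, CG32333 and CG15882 were each higher in Paf1L. Ret encodes a receptor tyrosine kinase (2L:21182446-21198762, minus strand). Its signal was 7.58, 9.92 and 9.14 in Paf1L testes, 2.89, 2.57 and 4.59 in the Leo1L cross and 2.95, 2.88 and 3.58 in the inverted cross, while all 6 controls were at 0.323 to 1.77. Both mutants were thus above every control and the Paf1L libraries above every Leo1L library, at 1.23 ± 0.20 (SE; limma adjusted p = 0.00847). The call was lost without the second (adjusted p = 0.0977) or the third Paf1L library (0.0553), and with a pseudocount of 0.1 (0.111). Against the 6 controls Ret rose by 2.42 in Paf1L and by 1.19 in Leo1L mutants (limma adjusted p = 6.78e-08 and 1.45e-05); these contrasts share their controls.

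CG32333 (3L:1275956-1295699, plus strand) had the same order of groups. It was at 15.5, 16.0 and 12.3 in Paf1L, at 7.01, 7.58 and 6.87 in the Leo1L cross and at 5.65, 5.52 and 5.70 in the inverted cross, with the controls at 0.699 to 1.56. The groups did not overlap, and the log2 fold change was 1.08 ± 0.15 (SE; limma adjusted p = 0.00107). Ctr9L and Cdc73L mutants, at 1.71 to 2.69 for both groups together, stood between the controls and the Leo1L libraries.

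CG15882 (X:19123755-19124388, minus strand) was above every control in Paf1L, while the Leo1L libraries lay between the control stocks. Its signal was 15.4, 12.3 and 12.5 in Paf1L testes, 6.61, 6.03 and 5.05 in the Leo1L cross and 5.82, 6.27 and 5.65 in the inverted cross. The controls differed between stocks, with 3.29 to 4.69 in w1118 and 6.65 to 8.82 in w1118 iso (limma adjusted p = 0.00402). Ctr9L mutants, at 12.1, 9.52 and 8.96, were also above every control, with a rise of 0.71 against the 6 controls (limma adjusted p = 0.0011). Cdc73L mutants were at 3.84 to 5.44. The log2 fold change was 1.06 ± 0.14 (SE; limma adjusted p = 0.000463). Without the first Paf1L library it was 0.96, below the fold limit.

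CG15765 (X:5818559-5840823, plus strand) and CG12729 (X:5845280-5846106, plus strand) are neighbours 4457 bases apart, and both were lower in Paf1L. CG15765 had 3.65, 4.18 and 4.25 in Paf1L testes, 12.3, 14.2 and 19.2 in the Leo1L cross and 19.9, 14.6 and 14.5 in the inverted cross. The controls, at 6.56 to 11.1, lay between the mutants. Its difference was -1.72 ± 0.15 (SE; limma adjusted p = 1.84e-06), made of a fall of 0.95 in Paf1L and a rise of 0.77 in Leo1L against the 6 controls. Ctr9L mutants (16.2 to 19.3) and Cdc73L mutants (15.8 to 19.2) were at the Leo1L level. CG12729 had 32.2, 33.6 and 24.3 in Paf1L testes against 67.5, 71.3 and 69.5 in the Leo1L cross and 79.1, 73.1 and 75.2 in the inverted cross. The controls were at 52.0 to 75.1, so only the Paf1L libraries were apart from them. The difference was -1.26 ± 0.10 (SE; limma adjusted p = 4.84e-07).

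Sdic3 (X:20189440-20194227, minus strand) belongs to a tandem cluster of near-identical genes for a sperm-specific dynein intermediate chain, so its reads are not certain to be its own. Its signal was 191, 215 and 221 in Paf1L testes, 528, 535 and 597 in the Leo1L cross and 467, 360 and 368 in the inverted cross. The control stocks also differed, with 180 to 299 in w1118 and 57.8 to 94.3 in w1118 iso, a log2 fold change of -1.69 for iso minus w1118. The log2 fold change between the mutants was -1.16 ± 0.14 (SE; limma adjusted p = 0.000307). Fitted with the control stocks as 1 group, whose spread is then much larger, the adjusted p was 0.492. Its copy Sdic4 was lower in Paf1L by 0.82 (limma adjusted p = 0.000463), whereas Sdic1 differed by -0.05 (adjusted p = 0.954) and Sdic2 by 0.57 (adjusted p = 0.360).

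**Figure D3:**
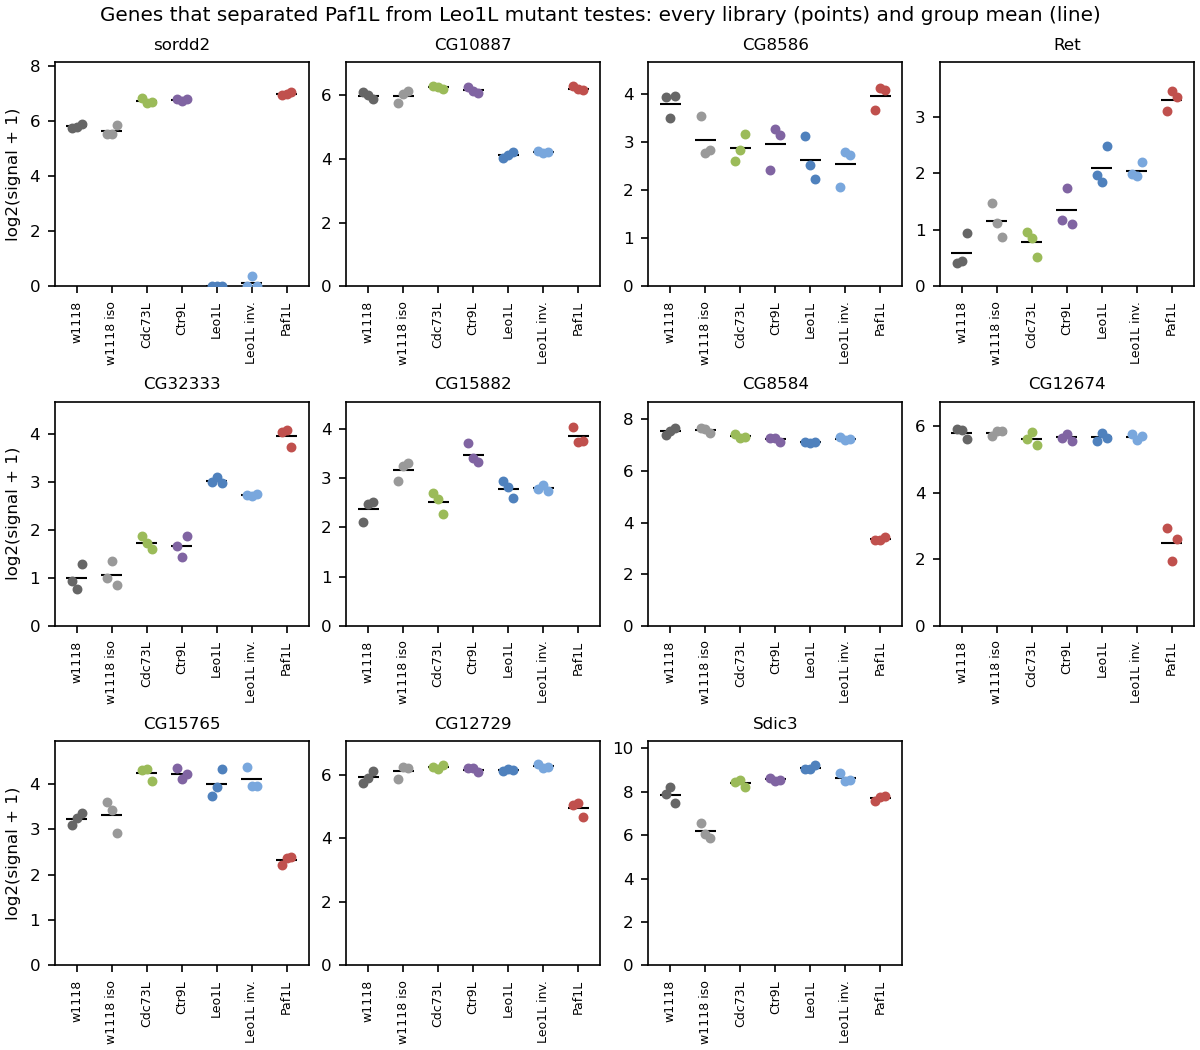
Log2(signal + 1) of the 11 called genes in each of the 21 whole-testis libraries (points), with a line at each group mean. Paf1L (red) lies above the Leo1L groups (blue) in the first 6 panels and below them in the last 5; sordd2 is at or near 0 in Leo1L alone and CG8584 is low in Paf1L alone.

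The other 14 genes that passed without a fold limit differed by less than 1 on the log2 scale. Higher in Paf1L were MCTS1 (0.58), which acts in translation re-initiation, Shmt (0.49), a serine hydroxymethyltransferase, CG15602 (0.43), the retrogene Ntf-2r (0.36), the polyubiquitin gene Ubi-p5E (0.36), the cap-binding factor gene eIF4E1 (0.33), CG13901 (0.31), CG13994 (0.28) and the co-chaperone gene DnaJ-1 (0.27). Lower in Paf1L were Sdic4 (-0.82), CG10361 (-0.73), CG30428 (-0.67), CG15891 (-0.49) and the lipase gene Hsl (-0.30). They differed in which mutant left the level of the controls. The signal of eIF4E1 was 298.8 ± 22.2 (SD, n = 3) in Paf1L, 239.6 ± 34.3 (SD, n = 6) in Leo1L and 302.5 ± 26.7 (SD, n = 6) in control testes. Against the controls it fell by 0.34 over both Leo1L crosses (limma adjusted p = 2.05e-05), but the crosses stood apart. The Leo1L cross, at 208, 208 and 210, fell by 0.53 (limma adjusted p = 2.46e-06), and the inverted cross, at 280, 271 and 260, differed by -0.16 (limma adjusted p = 0.0526). MCTS1 rose by 0.65 in Paf1L (limma adjusted p = 0.000113), with 30.4 ± 1.24 (SD, n = 3) in Paf1L, 20.2 ± 2.94 (SD, n = 6) in Leo1L and 19.1 ± 1.98 (SD, n = 6) in controls. Ntf-2r was below the controls (44.0 ± 1.95, n = 6) in both mutants, at 32.6 ± 1.31 (SD, n = 3) in Paf1L and 25.1 ± 1.23 (SD, n = 6) in Leo1L.

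The X chromosome held 11 of these 25 genes and 5 of the 11 called genes, while 16.0% of tested genes lie on it. A stretch of 476.8 kb (X:5818559-6295345) held 6 of the 25 among its 46 tested genes, namely CG15765, CG12729, Shmt, MCTS1, Ubi-p5E and CG15891; the stretch was chosen after these values were seen and carries no test. Within it CG15765, CG12729 and CG15891 were lower in Paf1L, and Shmt, MCTS1 and Ubi-p5E were higher. Of the 25 genes, 6 (24%) also differed between the control stocks w1118 and w1118 iso at any fold, against 949 of all tested genes (8.69%). Among the 11 called genes these were CG15882 and Sdic3. Whether genetic background differed between the Paf1L and Leo1L flies was not tested.

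Likeness was also measured against controls, with each mutant set against a different stock so that no library entered both contrasts. Against w1118, 154 genes were raised (1.41%) and 262 lowered (2.40%) in Leo1L testes. Against w1118 iso, 113 were raised (1.03%) and 91 lowered (0.833%) in Paf1L testes. Raised in both were 68 genes, 44.2% of the Leo1L and 60.2% of the Paf1L genes. Lowered in both were 46, or 17.6% and 50.5%. The 154 genes raised in Leo1L had a median of 1.35 there and 0.95 in Paf1L, with 138 of 154 above 0 in Paf1L against 51.6% of all tested genes. The 262 lowered genes had medians of -1.29 and -0.51, with 228 below 0 in Paf1L. The medians over all tested genes were 0.01 in each contrast. A single gene, sordd2, was called in opposite directions. Across the 10925 genes the fold changes had a Pearson r of 0.62; genes are not independent replicates. With the stocks exchanged, 98 genes were raised (0.897%) and 104 lowered (0.952%) in Leo1L, and 184 raised (1.68%) and 297 lowered (2.72%) in Paf1L. Then 59 genes were raised and 47 lowered in both, sordd2 was again the one opposite gene, and r was 0.42.

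**Figure D4:**
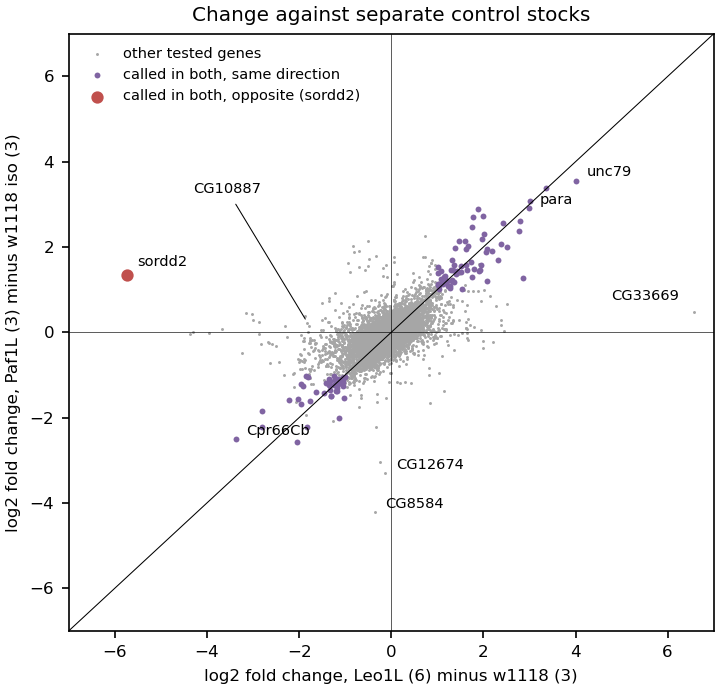
Log2 fold change of each tested gene in Leo1L against w1118 (x axis, 6 and 3 libraries) and in Paf1L against w1118 iso (y axis, 3 and 3 libraries), with the line of equality. Purple points are the 114 genes called in both in the same direction, and sordd2 (red) is the one called in opposite directions; CG33669 lies far right, with a mean signal of 1.53 in w1118.

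Of the 5 genes raised and the 5 lowered most in both mutants against the controls, none was called between the mutants. They were chosen for changing in both mutants, and 0.101% of all tested genes were called, so this count is near the background. In all, 75 genes were raised and 63 lowered in Paf1L and in each Leo1L cross. Of these, 2 were called between the mutants, Ret and CG32333, a larger share than the 0.101% of all tested genes. The gene unc79, which encodes a subunit of the NALCN cation channel complex, was at 39.2, 47.1 and 37.2 in Paf1L testes, at 37.4, 38.3 and 49.7 in the Leo1L cross and at 50.2, 34.1 and 37.6 in the inverted cross, against 0.762 to 3.52 in the controls. The groups of mutants overlapped, and the difference was 0.01 (95% interval -0.43 to 0.44). The sodium channel gene para was at 19.6, 18.4 and 12.4 in Paf1L testes, at 19.2, 22.0 and 22.8 in the Leo1L cross and at 16.5, 20.4 and 18.0 in the inverted cross, a difference of -0.24 (95% interval -0.56 to 0.08). Ctr9L and Cdc73L mutants had less, with 9.31 to 10.2 and 3.09 to 6.42 for unc79. The gene kek3, which encodes a transmembrane protein with leucine-rich repeats, was at 37.7 ± 2.86 (SD, n = 3) in Paf1L and 30.8 ± 4.46 (SD, n = 6) in Leo1L testes, against 2.56 ± 1.29 (SD, n = 6) in controls. Its difference between the mutants was 0.29 (95% interval -0.16 to 0.75). CG33669 was at 219.1 ± 3.13 and 237.7 ± 12.4 in the mutants, but at 1.53 ± 0.54 in w1118 and 158.2 ± 16.8 (SD, n = 3 each) in w1118 iso.

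CCHa1, a neuropeptide gene, was the one among these whose mutants did not overlap. It was at 21.1, 20.9 and 25.0 in Paf1L, at 10.8, 11.0 and 16.2 in the Leo1L cross and at 13.2, 11.8 and 13.7 in the inverted cross, with controls at 0.326 to 2.92. The difference of 0.77 (95% interval 0.32 to 1.22) did not pass over all genes (limma adjusted p = 0.242), though it did with a pseudocount of 5 (adjusted p = 0.0102, difference 0.62).

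Among the 5 most lowered genes, Cpr66Cb, a cuticle protein gene, was at 0.226, 0.167 and 0.659 in Paf1L and at 0 to 0.477 in the 6 Leo1L libraries, near the value of 3 reads in both, against 2.84 to 12.6 in the controls. Its difference was 0.16 (95% interval -0.41 to 0.72). CG3528 was at 1.33 ± 0.43 (SD, n = 3) in Paf1L and 1.59 ± 0.21 (SD, n = 6) in Leo1L testes, against 14.1 ± 6.51 (SD, n = 6) in controls. CG13334 was at 17.1 ± 1.24 and 15.2 ± 3.46, against 87.6 ± 26.0. CG6055 was at 3.73 ± 1.31 and 5.24 ± 1.34, against 26.4 ± 8.21. The basic helix-loop-helix factor gene net was at 6.16 ± 0.63 and 5.32 ± 0.83, against 24.5 ± 5.73 (SD, n = 3, 6 and 6 in each case). The differences between the mutants ranged from -0.41 for CG6055 to 0.19 for net, and every one of these 5 intervals included 0. In sorted spermatocytes net was at 15.0, 20.4 and 14.6 in Paf1L, 31.4, 34.4 and 31.7 in Leo1L and 54.1, 80.7 and 54.2 in controls. The difference between the sorted mutants was -0.94 (limma adjusted p = 0.0310). For CG3528, CG13334 and CG6055 the sorted mutants overlapped, and Cpr66Cb was at or near 0 there, controls included.

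Of 175 genes tested in lists by role, 2 passed, the mutated genes CG10887 and CG12674. With 0.229% of all tested genes passing, a count of 0 in a list is near the background, and the lists are described by their medians and intervals. The canonical PAF1 complex genes atms, Atu, Ctr9, hyx and Rtf1 had a median difference of -0.07, with all 5 intervals within 1 of 0; atms is the fly Paf1, Atu its Leo1 and hyx its Cdc73, and atms differed most, by -0.22 (limma adjusted p = 0.422). Over all tested genes the median was -0.01. The 13 tested elongation factors, histone-modifying enzymes and kinases had a median of -0.04, from Set2 (-0.16) to Cdk9 (0.12), and none passed. No gene passed among the 12 Y-linked genes (median 0.02), 4 testis TAF genes (0.04), 7 genes of the testis meiotic arrest complex (0.04), 11 meiosis genes (0.01), 11 sperm chromatin and tail genes (-0.05) or 14 cup and comet genes (-0.01), which are transcribed in spermatids. In each of these 6 lists every interval lay within 1 of 0. In 7 further lists (spermatogonia, other axonemal dyneins, pigment cells, hemocytes, heat shock, antimicrobial peptides and detoxification) no gene passed, and medians ran from -0.44 for the 5 tested antimicrobial peptide genes to 0.04 for the 8 heat shock genes.

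Against the 6 controls several lists held many lowered or raised genes in both mutants. Of the 12 Y-linked genes, 8 were lower at any fold in Leo1L and 8 in Paf1L testes, against 19.8% and 15.0% of all tested genes. FDY went the other way, rising by 0.41 in Leo1L (limma adjusted p = 0.0109) and by 0.99 in Paf1L (limma adjusted p = 5.07e-05). The dynein heavy chain gene kl-2 was at 15.4 ± 0.84 (SD, n = 3) in Paf1L and 16.4 ± 1.56 (SD, n = 6) in Leo1L testes, against 40.2 ± 2.56 (SD, n = 6), a difference between the mutants of -0.08 (95% interval -0.25 to 0.09). Another dynein heavy chain gene, kl-5, was at 28.3 ± 2.75 and 28.6 ± 4.42 in the mutants, a difference of 0.00 (95% interval -0.22 to 0.21). The widest Y-linked differences were those of ORY (-0.54, limma adjusted p = 0.214) and FDY (0.59, limma adjusted p = 0.145). Of the 14 cup and comet genes, 8 were lower in each mutant, while p-cup rose by 0.36 in Leo1L (limma adjusted p = 0.0247). Of the 11 muscle genes, 8 were lower in Leo1L and 6 in Paf1L, so muscle transcripts moved with both mutants; their part in the other results was not tested. Of the 9 tested voltage-gated and NALCN channel genes, 5 were higher in Leo1L and 4 in Paf1L (backgrounds 20.8% and 13.8%), with a median difference between the mutants of 0.00. The potassium channel gene Shab fell by 0.46 in Leo1L (limma adjusted p = 0.00770) and fell by 0.68 in Paf1L (limma adjusted p = 0.00319), and Shaw fell by 0.25 in Leo1L (limma adjusted p = 0.0296). The channel subunit gene na was at 8.83 ± 0.86 (SD, n = 3) and 8.03 ± 0.94 (SD, n = 6). These contrasts share the 6 controls and the lists were chosen with earlier results known.

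Among lists for tissue other than germ cells, no gene passed. The 8 hub and cyst cell genes had a median difference of 0.03, with all 8 intervals within 1 of 0, and the 11 muscle genes one of -0.03, with 10 intervals within 1 of 0. Other lists were less precise. The 5 tested ejaculatory duct and bulb genes had a median of 0.71 and the 4 tested fat body genes one of 0.74, with 1 interval within 1 of 0 in each list. The mean log2(signal + 1) of the fat body list ran from 3.55 to 5.71 in Paf1L and from 2.42 to 4.53 in Leo1L libraries, so the groups overlapped. Dup99B, an ejaculatory duct peptide gene, differed by 2.15 with a 95% interval of -0.37 to 4.67. Of the 12 accessory gland genes none passed and no interval lay within 1 of 0. For most genes of the accessory gland, duct and bulb, and fat body lists, the difference between the mutants is therefore not measured to within a fold of 2.

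Sorted spermatocytes gave a second, separately normalised comparison of the same pair, in homozygous FS1 mutants. Whether their alleles also stand in the TH flies is not given. Of 9495 genes, 25 were called between sorted Paf1L and sorted Leo1L (0.263%, 16 higher and 9 lower in Paf1L), and 42 passed at any fold (0.442%). Of the 11 genes called in whole testes 10 were tested there, 8 had the same sign and 4 were called. Without the mutated genes CG10887 and CG12674, whose direction the genotypes set, 8 were tested, 6 had the same sign (75.0%) and 3 were called, against 44.4% with the same sign among 9333 genes tested in both tables. The 4 called genes were sordd2 (7.29), CG12674 (-2.74), CG32333 (1.53) and CG15882 (1.40), with limma adjusted p of 3.68e-12, 8.66e-05, 0.0164 and 0.00552. CG32333 was at 42.2, 34.2 and 27.7 in sorted Paf1L, at 13.3, 9.61 and 10.9 in sorted Leo1L and at 0.691, 0 and 0.401 in sorted control columns. CG15882 was at 15.1, 12.7 and 15.5 in sorted Paf1L, at 5.94, 3.68 and 5.09 in sorted Leo1L and at 11.8, 10.6 and 11.3 in sorted controls. In sorted cells the Leo1L columns were below and the Paf1L columns above the controls, which were w1118. In whole testes the Leo1L libraries, at 5.05 to 6.61, were above every w1118 library (3.29 to 4.69). They were below every w1118 iso library (6.65 to 8.82). CG10887 (0.83, adjusted p = 0.125) and Ret (0.98, adjusted p = 0.281) had the same sign and did not pass. Sdic3 was at 804 to 878 in sorted Paf1L and 864 to 991 in sorted Leo1L, both above the sorted controls at 194 to 218, a difference between the mutants of -0.18 (limma adjusted p = 0.314).

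The X-linked neighbours CG15765 and CG12729 had the opposite sign in sorted cells. CG15765 was at 14.9, 13.8 and 12.3 in sorted Paf1L, at 8.52, 7.10 and 7.04 in sorted Leo1L and at 1.38 to 3.28 in sorted controls, a difference of 0.78 (limma adjusted p = 0.246). CG12729 was at 41.5, 41.0 and 39.3, at 26.3, 27.6 and 26.7 and at 15.3 to 22.0, a difference of 0.58 (limma adjusted p = 0.140). In both genes the sorted groups did not overlap, a separation whose share over all sorted genes is not given here. Neither difference passed. CG8586 was too low to be tested in sorted cells, where it was listed at 0 to 0.943.

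**Figure D5:**
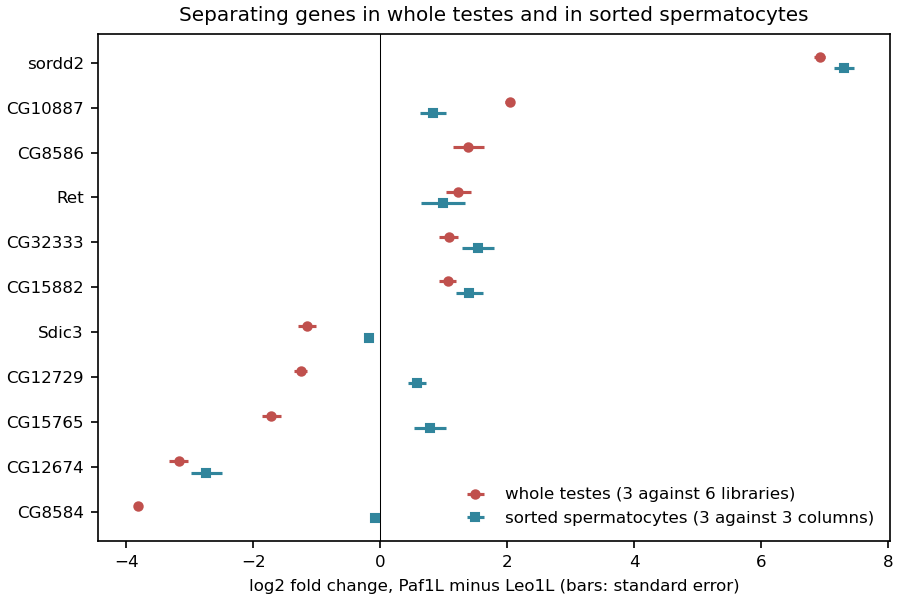
Log2 fold change of Paf1L minus Leo1L for the 11 called genes in whole testes (red circles, 3 against 6 libraries) and in sorted spermatocytes (blue squares, 3 against 3 columns), with bars for the standard error. CG8584 is at -3.81 and -0.08, CG15765 and CG12729 change sign, and CG8586 has no sorted value.

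Most genes that separated the sorted mutants did not separate whole testes. Of the 25, 24 were tested in whole testes, 4 were called there with the same sign, and 18 had a whole-testis interval within 1 of 0. The largest sorted differences apart from sordd2, named after they were seen, were RabX2 (-5.75), a Rab family gene, the innexin gene ogre (4.30) and the homeobox gene B-H2 (3.60). In whole testes they differed by -0.02, 0.04 and 0.09, with 95% intervals of -0.36 to 0.31, -0.15 to 0.22 and -0.19 to 0.37. The sorted flies also carried tagged Cdc73L, so cells, alleles and tag cannot be told apart here.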

How the data were processed

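RNA of whole testes (21 libraries, 9 of them compared here) and of sorted spermatocytes (9 columns, each joining a library with and one without depletion of ribosomal RNA, per the labels) was sequenced. The authors deposited signal per gene under the name GeTMM, 1 table per experiment, 13659 genes each. STAR, Salmon, edgeR 3.34.0 and DESeq2 and the build dm6 are named in the submitters' processing notes, without roles. Within a library 66.6% to 86.2% of low values in the 9 libraries lay near whole multiples of 1 step, too few to recover reads, and whether values were divided by gene length could not be settled, so levels are not compared between genes. All columns of the tables were used (0 left out).

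From these values limma 3.58.1 in R 4.3.3 (lmFit, eBayes with a mean-variance trend) was fitted on log2(signal + 1) over all 21 libraries, or over the 9 sorted columns, with 1 coefficient per group, for genes with a mean signal of at least 1. Paf1L was contrasted with the mean of the Leo1L crosses, and the Benjamini-Hochberg adjustment ran over all tested genes of a contrast. Every adjusted p in the text comes from these fits, except where an alternative is named beside it. The procedure was tested on simulated data. Named genes are the mutated genes, up to 10 called genes per direction with all libraries apart, 5 raised and 5 lowered genes that changed most on average against the 6 controls in both mutants, and list members that passed the test; genes outside this rule were chosen after their values were seen. The members and lists were chosen with earlier results of these data known. Positions are from Ensembl 115 (BDGP6.54), matched for 99.9% of genes. The labels do not say that whole-testis replicates were dissected separately, so p-values measure the spread between these libraries. Depth figures and the value of 3 reads cover counting error only. Alternatives were other pseudocounts, filters, scalings, weights, a replicate block and libraries left out.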

Additional observations from a re-analysis of the deposited data

Results flagged for a closer look

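Among groups of 6 libraries, 43 were examined for a library far from the rest and 2 had one, where chance gives about 1 in 20. For sordd2 it was the second library of the inverted Leo1L cross, at 0.294 where the other 5 Leo1L libraries were listed at 0. Those 5 values have no spread, so the chance rate does not hold for this flag. For Cpr66Cb it was the first w1118 iso library, at 2.84 where the other controls were at 9.15 to 12.6.

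For a pair of genes every Paf1L sample lay on opposite sides of the Leo1L samples in the 2 experiments. CG15765 differed by -1.72 in whole testes and by 0.779 in sorted spermatocytes, and CG12729 by -1.26 and 0.576. The difference between the experiments was not tested, since the tables were normalised separately and the genotypes differ. The share of all sorted genes whose groups do not overlap is not given here.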

How the results depend on the processing

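A pseudocount of 5 left 7 called genes, 2 of them higher in Paf1L, and reduced the genes alike against separate control stocks from 114 to 49. Without a fold limit 25 genes passed (15 higher, 10 lower) and 1672 were alike. Leaving out 1 library at a time gave 9 to 14 called genes, 4 to 6 higher and 5 to 8 lower; the 14 came without the third Leo1L library, which added CG18180, CG42397 and CG5506. With the control stocks fitted as 1 group, a choice made after seeing the data, 9 genes were called, 6 between Paf1L and the Leo1L cross and 0 between the Leo1L crosses, where 481 genes had been under an unadjusted p of 0.05; CG8586 (adjusted p = 0.0608) and Sdic3 (0.492) were the calls lost. CG8586 was also lost with 9 libraries in the fit (0.0799) and with either Leo1L cross alone (0.0563 and 0.0524), as were CG32333 with the Leo1L cross alone and Sdic3 with the inverted cross alone. Array weights gave CCHa1 an adjusted p of 0.0264. No value changed sign among the results whose test passed. Same-numbered libraries correlated at -0.494 to 0.421, without a common sign. Differently numbered libraries were not set beside them, so whether numbers pair libraries was not settled. With a replicate block 11 genes were called, and 26 in sorted cells, where leaving out 1 column gave 17 to 28. Depth limits sordd2 in Leo1L and Cpr66Cb in both mutants, which lie near the value of 3 reads, and the spread of accessory gland, duct and fat body transcripts limits what can be said of those tissues.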
